A study of Mus musculus and blank sample with 91 samples.

Results

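The bacteria described here are the Ruminococcaceae outside the genera Ruminiclostridium and Ruminococcus that were found repeatedly in mouse feces. They were selected on how often they were seen, and are the amplicon sequence variants (ASVs, the exact 16S sequences inferred from the reads) with the family name Ruminococcaceae, a genus name other than these, and a count above 0 in at least 3 of 88 samples. The rule left 111 ASVs of 2295 in the count table, in 12 genera. These names covered 564 ASVs with no minimum of samples, and the other 453 were found in only 1 sample (353 ASVs) or 2 samples (100 ASVs). The 111 members held 57.0% of the counts of the 564 and 3.99% of all counts. Because the rule counts samples, the number of samples per ASV is a description and was not tested. The 43 members in exactly 3 samples had a median mean of 0.0198% of counts, against 0.0109% for the 100 ASVs in 2 samples, just outside the rule.

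Ruminococcaceae are strictly anaerobic Clostridia of the gut, known for breaking down plant fibre and for producing short-chain fatty acids. Flavonifractor, Flintibacter and Intestinimonas are known as butyrate producers. Acutalibacter and Neglecta have cultured representatives, whereas the names beginning with UCG denote uncultured groups known mainly from their 16S genes. Later taxonomies move UCG-014 and several of the other genera out of Ruminococcaceae, so the family name is that of the deposited taxonomy.

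Feces came from female C57BL/6 mice (written C57BL/6J in part of the study's text), 8 weeks old on purchase, in 3 treatments. Naïve mice received nothing and CFA mice received, per the labels, complete Freund's adjuvant alone. EAE mice received 50 µg of the MOG peptide in the same adjuvant to induce experimental autoimmune encephalomyelitis, and 250 ng of pertussis toxin on days 0 and 2. The EAE and CFA groups thus differed in the peptide and in the toxin, which cannot be told apart. Samples were taken at -2 days post immunization (dpi) and at 8, 14, 19 and 29 dpi, with 6 mice per treatment and day, or 5 for EAE at 14 dpi and for CFA at 29 dpi. Mice lived 2 to 3 to a cage and each cage received 1 treatment. The labels do not give the cage, so cage and treatment cannot be told apart, and p-values over mice may be too small because cage mates share bacteria. EAE mice carried other numbers in the labels at -2 and 8 dpi (550 to 557) than at 14, 19 and 29 dpi (588 to 595).

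Total counts ranged from 9202 to 102437 per sample, with medians of 65306.5 in naïve, 65928 in CFA and 55362 in EAE mice. The shallowest was EAE mouse 555 at 8 dpi, in which 9202 counts were spread over 4 ASVs. EAE mouse 595 at 19 dpi, with 15279 counts and 25 ASVs, was also shallow. So were EAE mouse 551 at 8 dpi (17439 counts, 22 ASVs) and EAE mouse 589 at 14 dpi (17326 counts, 37 ASVs). Where UCG-014 or the total is described, some of the values that rest on mice 555 and 595 are also given without them. The smallest count above 0 of any member was 19, so a value of 0 means that no such ASV was inferred in a sample. Lactobacillaceae held a mean of 34.1% of counts in naïve, 38.2% in CFA and 31.5% in EAE mice at -2 dpi. On the later days it was 14.5, 1.14, 1.60 and 2.61% in EAE mice. All values below are percents of a sample's counts, in which more of one bacterium and less of another cannot be told apart.

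The 111 ASVs came down to few distinct bacterial sequences. Every one still carried both amplification primers, which are mixtures of several bases at some positions, and without the primers the 111 ASVs collapsed to 24 sequences. These are named here by genus and numbered by mean percent over all samples, with all primer variants of a sequence summed, members or not. A sequence had a median of 12.5 primer variants in the table, and 190 of the 453 rarer ASVs were variants of a member sequence. Only 1 of 24 sequences, UCG-014 sequence 1, had all of its variants (17) among the members.

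Merging changed how widespread most of these bacteria appeared. Flavonifractor sequence 1, the most prevalent, was present in 62 of 88 samples through 20 variants, although its most frequent single ASV was in 11. The UCG-010 sequence was present in 58 samples through 25 variants, of which the most frequent was in 6. UCG-014 sequence 1 had the highest mean percent of the 24, 1.19% over all samples, yet was present in only 12 samples, and its most frequent ASV in 8. Across all 111 members the number of samples per ASV had a median of 4 and reached at most 11.

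**Figure D1:**
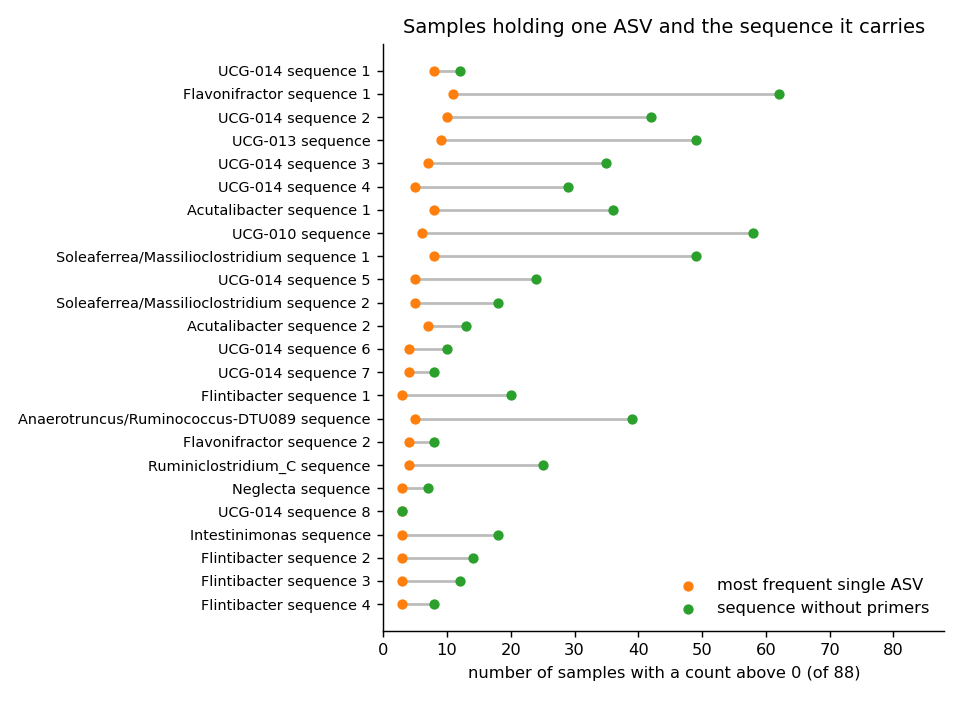
The number of samples, of 88, in which the most frequent single ASV of each of the 24 sequences was found (orange) and in which the sequence was found through any primer variant (green). Flavonifractor sequence 1 goes from 11 to 62 samples and the UCG-010 sequence from 6 to 58.

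The genus names were checked against the sequences themselves, which are 401 to 405 bases long without primers. Members of the same genus were identical at 88.3 to 99.8% of aligned positions (median 93.1%, 37 pairs), and members of different genera at 78.9 to 97.5% (median 83.0%, 239 pairs). The 8 sequences of UCG-014 were 90.8 to 99.8% identical among themselves. For 21 of 24 sequences, the nearest other sequence in the table carried the same genus name. For Soleaferrea/Massilioclostridium sequence 2 the nearest was named Lachnospiraceae, at 95.0% identity and 20 differing positions, which goes against its family name. One sequence carried 4 genus names in the table, among them Anaerotruncus and Ruminococcus-DTU089, and Flintibacter sequence 2 was also named Oscillibacter, a genus of another family. Values of genera in small numbers of ASVs therefore depend on which name an ASV received.

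UCG-014 held the largest part of the member counts, 45.1%, with 48 ASVs in 8 sequences. Flavonifractor followed with 24.6% (15 ASVs, 2 sequences), UCG-013 with 9.32% (9 ASVs, 1 sequence) and Acutalibacter with 7.21% (7 ASVs, 2 sequences). Candidatus Soleaferrea/Massilioclostridium held 5.84% (10 ASVs) and UCG-010 3.52% (8 ASVs). The other 6 genera held 0.236 to 1.66% each, with 1 to 5 ASVs: Flintibacter, Ruminococcus-DTU089, Ruminiclostridium_C-Clostridium IV, Neglecta, Anaerotruncus and Intestinimonas/Ruminiclostridium_9.

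Together the 111 ASVs took up a few percent of the counts in naïve and CFA mice and more in EAE mice after immunization. At -2 dpi the total was 3.17% ± 0.572 in naïve, 2.43% ± 1.30 in CFA and 3.22% ± 1.08 in EAE mice (SD, n = 6 each). At 14 dpi the 5 EAE mice held 3.41, 6.82, 8.46, 9.47 and 12.7%, the 6 naïve mice 0.634 to 4.27% (median 2.11%) and the 6 CFA mice 3.01 to 6.99% (median 4.64%). The EAE range thus overlapped both others, through the mouse at 3.41% for naïve mice and the 2 lowest EAE mice for CFA mice.

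At 19 dpi the EAE mice held 3.06 to 14.7% (median 6.21%), against 0.567 to 4.94% (median 2.77%) in naïve and 1.01 to 4.13% (median 3.27%) in CFA mice. The EAE mean then was 7.76%, and 6.94% without the shallow mouse 595. The 8 dpi EAE mice were the most spread, from 0 to 48.0% with a median of 5.69%, and 48.0% was the shallow mouse 555. At 29 dpi they held 0 to 8.17% (median 5.31%), naïve mice 0 to 4.57% (median 0.807%), and the 5 CFA mice 1.47, 1.59, 1.62, 4.10 and 4.57%.

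None of the 15 differences between treatments in this total passed an adjusted p of 0.05 in a two-sided exact permutation test, and no groups were free of overlap. The EAE mean exceeded the naïve mean by 6.12 percentage points at 14 dpi (exact permutation p = 0.00866, adjusted 0.0568) and by 4.93 at 19 dpi (exact permutation p = 0.0152, adjusted 0.0568). Against CFA mice the differences were 3.35 at 14 dpi (exact permutation, adjusted p = 0.162) and 4.71 at 19 dpi (adjusted p = 0.0568, exact permutation). CFA mice exceeded naïve mice by 2.77 at 14 dpi (exact permutation, adjusted p = 0.0568). At -2 dpi the EAE and naïve means were 0.0557 apart (exact permutation p = 0.900). The members include the 17 ASVs of UCG-014 sequence 1, which met the minimum of 3 samples through EAE mice alone. Part of the EAE excess therefore lies in ASVs that the rule admitted through EAE mice. Without this sequence the EAE mean differed by 0.639 points from naïve and -2.13 from CFA mice at 14 dpi. At 19 dpi it differed by 3.48 and 3.27. The members left still include ASVs that met the minimum through EAE mice alone, and 14 that met it through CFA mice alone.

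The minimum of 3 samples decided these calls. When all 564 ASVs were summed, EAE exceeded naïve mice by 11.9 points at 14 dpi and 5.87 at 19 dpi, each with an adjusted p of 0.0162 (exact permutation). EAE then exceeded CFA mice by 6.44 (adjusted p = 0.0260, exact permutation) and 6.18 (adjusted p = 0.0162), and CFA exceeded naïve mice by 5.43 at 14 dpi (adjusted p = 0.0162). As a percent of the counts outside Lactobacillaceae, the members of EAE mice exceeded those of naïve mice by 5.18 points at 14 dpi and 4.22 at 19 dpi (exact permutation, adjusted p = 0.211 for both). At 8 dpi the difference of 9.45 between EAE and naïve mice was 2.44 without mouse 555, and the one of 8.86 from CFA mice was 1.86.

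**Figure D2:**
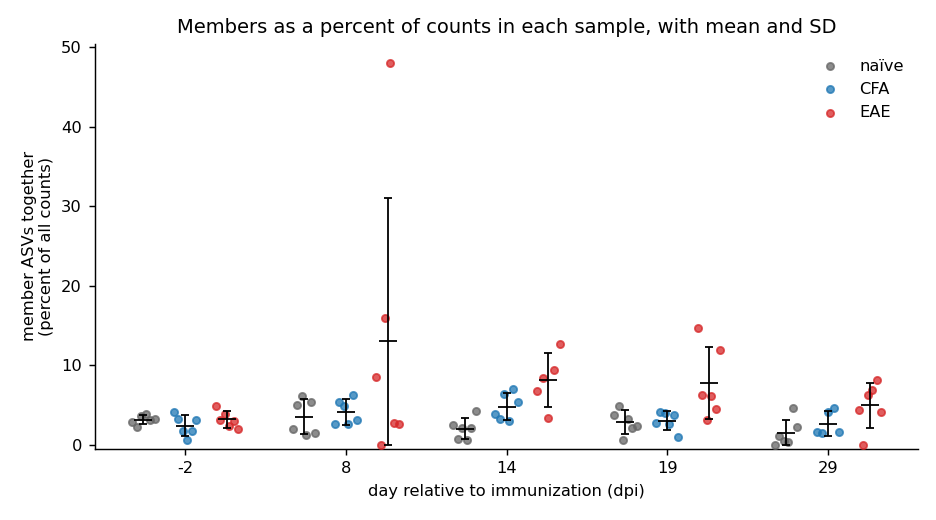
Percent of counts held by the 111 member ASVs, by treatment and day in dpi, with a point for each mouse and bars for the mean and SD (the lower end stopped at 0). EAE means lie above the others from 8 dpi on, with a single mouse at 48.0% at 8 dpi, and the mice overlap the other treatments on every day.

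Changes since -2 dpi were tested within treatments. Naïve mice changed by 0.388, -1.12, -0.332 and -1.71 points at 8, 14, 19 and 29 dpi, and CFA mice by 1.71, 2.39, 0.624 and 0.392 (paired by mouse). In EAE mice the total was 9.78 points higher at 8 dpi, in 4 of 6 mice (paired exact sign-flip test, p = 0.188, adjusted 0.286), and 2.60 points higher without mouse 555, in 3 of 5 mice (paired exact sign-flip test, p = 0.375). On the later days EAE mice carried other numbers, so that a change since -2 dpi cannot be told apart from a difference between sets of mice. Without pairing, EAE mice were 4.95 points above their -2 dpi mean at 14 dpi (exact permutation p = 0.0130, adjusted 0.104). They were 4.54 above it at 19 dpi (exact permutation, adjusted p = 0.104) and 1.74 above it at 29 dpi (exact permutation, adjusted p = 0.286). None of the 12 changes passed. The smallest p that a paired sign-flip test can give is 0.03125 with 6 mice and 0.0625 with 5. The paired tests could thus hardly pass after adjustment, and their outcome does not show that nothing changed. The changes of EAE mice include UCG-014 sequence 1, whose ASVs became members through EAE mice alone.

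Within the family, the members' share of counts was lower at 14 dpi than at -2 dpi in all treatments. Both sides of this share were ASVs in at least 3 samples. In EAE mice such ASVs of Ruminiclostridium and Ruminococcus together averaged 0.860% before immunization and 3.86, 11.0, 7.33 and 2.36% on the later days. The share of the counts of Ruminococcaceae ASVs in at least 3 samples that the members held was 80.8% at -2 dpi and 46.0% at 14 dpi in EAE mice. It was 91.8% and 62.5% in naïve and 79.1% and 72.6% in CFA mice. EAE fell furthest short of naïve mice at 29 dpi, by a difference of -28.9 points, which did not pass (exact permutation p = 0.0476, adjusted over 10 comparisons 0.188, with 1 naïve mouse left out that had no counts of such ASVs).

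UCG-014 accounted for the larger part of the differences of EAE mice from the other treatments in mean total after immunization, but for 0.876 of the 2.77 points between CFA and naïve mice at 14 dpi. In EAE mice UCG-014 held a mean of 0.891% at -2 dpi, then 11.9% ± 18.8, 7.29% ± 3.46, 4.15% ± 3.34 and 2.17% ± 1.47 at 8, 14, 19 and 29 dpi (SD, n = 6, and 5 at 14 dpi). Without the shallow mice 555 and 595 the means at 8 and 19 dpi were 4.64% ± 6.95 and 3.10% ± 2.38 (SD, n = 5). Naïve means lay between 0.201% and 1.62% on all days, and CFA means between 0.502% and 1.68%. The 14 dpi EAE mice held 2.26, 6.38, 7.53, 8.46 and 11.8%, while naïve mice held 0 to 3.53% with a median of 0.287%. At 19 dpi the EAE mice held 1.62 to 9.39% (median 2.42%) and the naïve mice 0 to 1.57% (median 0.224%), with no overlap.

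Of the member genera, only UCG-014 passed an exact permutation test of percents after adjustment. Its sum includes the 17 ASVs of UCG-014 sequence 1, described below, which met the minimum of 3 samples through EAE mice alone. They held 1.44 of the 4.15% at 19 dpi, so that part of the excess lies in ASVs that the rule admitted through EAE mice. At 19 dpi UCG-014 was 3.70 points higher in EAE than in naïve mice (exact permutation p = 0.00216, the smallest that 6 against 6 mice can give, adjusted over 51 genera 0.0276). It was also 3.27 points higher than in CFA mice (exact permutation p = 0.00649, adjusted 0.0473). Over 8 to 29 dpi that test called 1.96% of all genera for EAE against naïve and 6.86% for EAE against CFA, and 1 of 48 tests of member genera in each. At 14 dpi UCG-014 was 6.48 points above naïve (exact permutation, adjusted p = 0.0883) and 5.61 above CFA mice (exact permutation, adjusted p = 0.110). At 29 dpi it was 1.97 above naïve mice (exact permutation, adjusted p = 0.0966).

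Both calls at 19 dpi were lost under other settings, which were added after seeing the data. Without the shallow mouse 595 the adjusted p-values were 0.0552 and 0.0828 (exact permutation). Without UCG-014 sequence 1 the differences were 2.26 points from naïve mice (adjusted p = 0.0552, exact permutation) and 1.83 from CFA mice (adjusted p = 0.0859, exact permutation). With all ASVs of each genus, a sum that the minimum does not touch, the adjusted p-values were both 0.0790 at 19 dpi, and 0.0395 and 0.0287 at 14 dpi (exact permutation), where the differences were 10.7 and 9.13 points. As a percent of the counts outside Lactobacillaceae, UCG-014 at 19 dpi was 3.62 points above naïve mice (adjusted p = 0.0662, exact permutation) and 2.81 above CFA mice (adjusted p = 0.263, exact permutation). By edgeR, which works on log2 fold changes, UCG-014 was not called: 2.93 ± 2.24 (SE) at 14 dpi with an adjusted p of 0.501, 2.09 ± 2.12 at 19 dpi (0.796) and 3.61 ± 2.26 at 29 dpi (0.320), EAE against naïve.

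**Figure D3:**
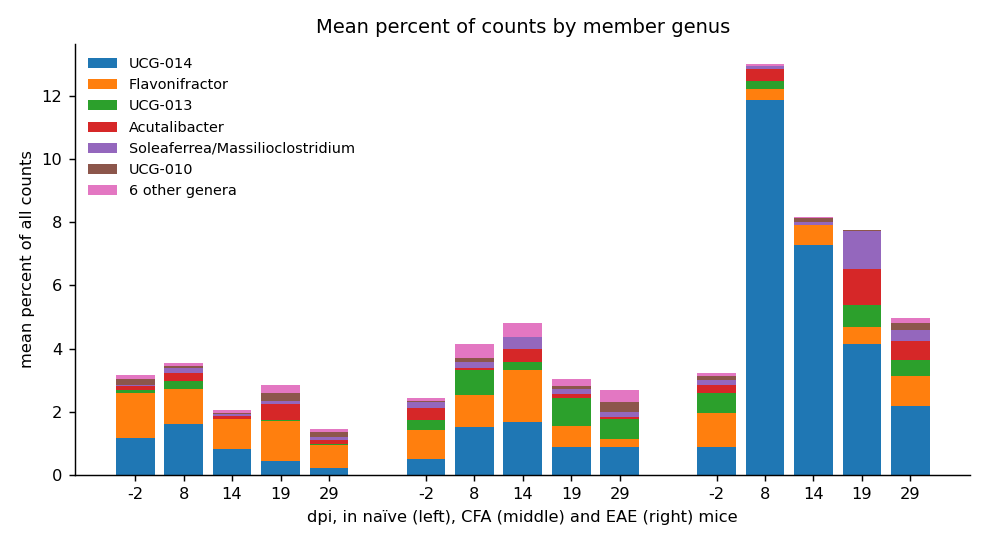
Mean percent of counts of each member genus, stacked, for each treatment and day in dpi. In EAE mice UCG-014 makes up 11.9% at 8 dpi and 7.29% at 14 dpi, and at 19 dpi Soleaferrea/Massilioclostridium and Acutalibacter add 1.21% and 1.12%.

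Flavonifractor, a butyrate producer, was found in all treatments. Its means ran from 0.751 to 1.42% in naïve, 0.274 to 1.65% in CFA and 0.366 to 1.05% in EAE mice. At 8 dpi a single EAE mouse of 6 held it through a member ASV, at 2.20%, against 3 of 6 naïve mice (up to 2.23%) and 5 of 6 CFA mice (up to 1.76%). No Flavonifractor comparison passed. Differences of EAE from naïve mice ran from -0.724 points at 19 dpi to 0.193 at 29 dpi, and those from CFA mice from -1.01 at 14 dpi (0.635 against 1.65%) to 0.670 at 29 dpi.

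UCG-013 means were higher in CFA than in naïve mice on all days, and no exact permutation test passed after adjustment. They were already so at -2 dpi, at 0.312 against 0.118%, where the sequence was in 4 of 6 CFA mice and 1 of 6 naïve mice. At 29 dpi the 5 CFA mice held 0.394, 0.465, 0.475, 0.651 and 1.06%, whereas 5 of 6 naïve mice were at 0 and the last at 0.147%, with no overlap. That difference of 0.584 points had an exact permutation p of 0.00433, the smallest possible for 5 against 6 mice, and an adjusted p of 0.0552 over 51 genera. At 19 dpi CFA mice averaged 0.884% and naïve mice 0.0306% (exact permutation p = 0.0152, adjusted 0.110). EAE mice already averaged 0.643% at -2 dpi, and 0.256, 0, 0.699 and 0.509% on the later days.

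Acutalibacter and Soleaferrea/Massilioclostridium were highest in EAE mice at 19 dpi. Soleaferrea/Massilioclostridium averaged 1.21% there, against 0.0780% in naïve (exact permutation p = 0.0281, adjusted 0.159) and 0.135% in CFA mice (exact permutation p = 0.0303, adjusted 0.129). Acutalibacter averaged 1.12%, against 0.508% in naïve and 0.146% in CFA mice (exact permutation p = 0.351 and 0.0606). Neither passed after adjustment. Of 18 samples with Soleaferrea/Massilioclostridium sequence 2, 16 were from EAE mice after immunization, as were 11 of 13 with Acutalibacter sequence 2. Each was in only 2 other samples, so their ASVs could not meet the minimum of 3 samples without EAE mice. Part of the excess in both genera therefore lies in ASVs that the rule admitted through EAE mice.

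Counts were also tested for each genus in 1 fit of all 15 groups by edgeR. For EAE against naïve mice over 8 to 29 dpi, 7.84% of all genus tests were called and 0 of 48 for member genera, with 11 at an unadjusted p under 0.05; DESeq2 called 10 (2 higher and 8 lower in EAE mice), and 26% of all. For EAE against CFA, DESeq2 called 15 (1 higher and 14 lower in EAE mice), and 34.8% of all. By edgeR the share for EAE against CFA was 17.6% of all tests, against 4 of 48 (8.33%) for member genera, and for CFA against naïve 8.82% against 1 of 48 (2.08%). At -2 dpi 0 of 12 member genera were called in each pair, where 1.96, 3.92 and 7.84% of all genera were. The 5 calls were UCG-010 lower in EAE than in CFA mice at 8 dpi (0 of 6 mice against 2 of 6, edgeR adjusted p = 0.0421) and 4 at 14 dpi.

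These 4 were UCG-010 higher (2 of 5 against 0 of 6, edgeR adjusted p = 0.0404), Acutalibacter lower (0 of 5 against 4 of 6, adjusted p = 0.0445) and UCG-013 lower (0 of 5 against 2 of 6, adjusted p = 0.0356) in EAE than in CFA mice, and UCG-013 higher in CFA than in naïve mice (2 of 6 against 0 of 6, adjusted p = 0.0327). In all 5 calls a whole group was at 0, so no fold is given. Several changed when all primer variants were counted. In that count, the UCG-010 sequence was in 3 of 5 EAE and 5 of 6 CFA mice at 14 dpi, the opposite order, and Acutalibacter sequence 1 in 2 of 5 EAE mice. Only UCG-013 kept its zeros, with its sequence in 0 of 5 EAE, 5 of 6 CFA and 0 of 6 naïve mice at 14 dpi. Within treatments, 0 of 48 tests of member genera against -2 dpi were called in naïve, CFA and EAE mice, where 2.94, 3.43 and 3.43% of all tests were. Tests of whether EAE and naïve mice changed differently since -2 dpi called 2 of 48 for member genera (9.31% of all) and those of EAE and CFA mice 4 of 48 (11.8% of all), each of them for Anaerotruncus (higher in EAE mice) or Ruminococcus-DTU089 (lower), and each with at least 1 whole group at 0. For CFA and naïve mice 0 of 48 were called, with 3 at an unadjusted p under 0.05 (1.96% of all called). Anaerotruncus and Ruminococcus-DTU089 are names of the same sequence, for which no such difference was called with its primer variants merged.

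Of single member ASVs, edgeR called 0 of 444 tests in each pair of treatments over 8 to 29 dpi. The background was 4.01% of all ASV tests for EAE against naïve, 5.52% for EAE against CFA and 3.9% for CFA against naïve. At an unadjusted p under 0.05 there were 187, 201 and 143, and DESeq2 called 120, 128 and 78, against 30.9, 32.2 and 27.2% of all tests. It called 18, 16 and 18 members already at -2 dpi, against 16.4, 24.1 and 23.5% of all. Tests of a difference in the change since -2 dpi by edgeR called 36 of 444 (8.11%, 21 higher and 15 lower) for EAE against naïve, where 9.45% of all ASV tests were called. They called 23 (5.18%, background 11.7%) for EAE against CFA and 24 (5.41%, background 7.48%) for CFA against naïve.

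Many member ASVs were found in 1 treatment alone. Of the 111 members, 25 (22.5%) were found in EAE mice alone and 14 (12.6%) in CFA mice alone, against 6.48% and 5.56% of all 648 ASVs in at least 3 samples. Naïve mice alone held 1 (0.901%, against 2.93%). These shares were not tested, since primer variants of 1 sequence are not independent, and 17 of the 25 were variants of UCG-014 sequence 1.

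UCG-014 sequence 1, the most abundant of the 24, was found in EAE mice alone. It was present in 12 of 23 EAE samples after immunization and in 0 of 65 other samples, which include all 6 EAE mice at -2 dpi. All 17 of its ASVs met the minimum of 3 samples through EAE mice alone, so that it is among the members because of EAE mice. It had no variants outside the members, so its absence from the other samples holds for the whole count table. Over 8, 14, 19 and 29 dpi it was found in 3 of 6, 5 of 5, 3 of 6 and 1 of 6 EAE mice, and it averaged 11.2, 5.48, 1.44 and 0.259% of their counts.

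At 8 dpi it held 3.92% in mouse 550 (1908 counts), 15.1% in mouse 553 (6990 counts) and 48.0% in mouse 555 (4419 counts), with mice 551, 556 and 557 at 0. At 14 dpi it held 3.01% in mouse 588, 6.29% in mouse 589, 1.11% in mouse 591, 5.18% in mouse 593 and 11.8% in mouse 595. By 19 dpi mice 588, 589 and 595 held 1.70, 1.33 and 5.64%, and mice 591, 593 and 594 were at 0. At 29 dpi mouse 593 held 1.55% and the other 5 were at 0. Every EAE mouse sampled at 14 dpi thus carried it, and each of the mice followed to 19 dpi was lower then. The clinical scores of the 14 dpi mice 588, 589, 591, 593 and 595 were 1, 3, 0, 0 and 3.5, so the sequence was present at a score of 0 as well.

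**Figure D4:**
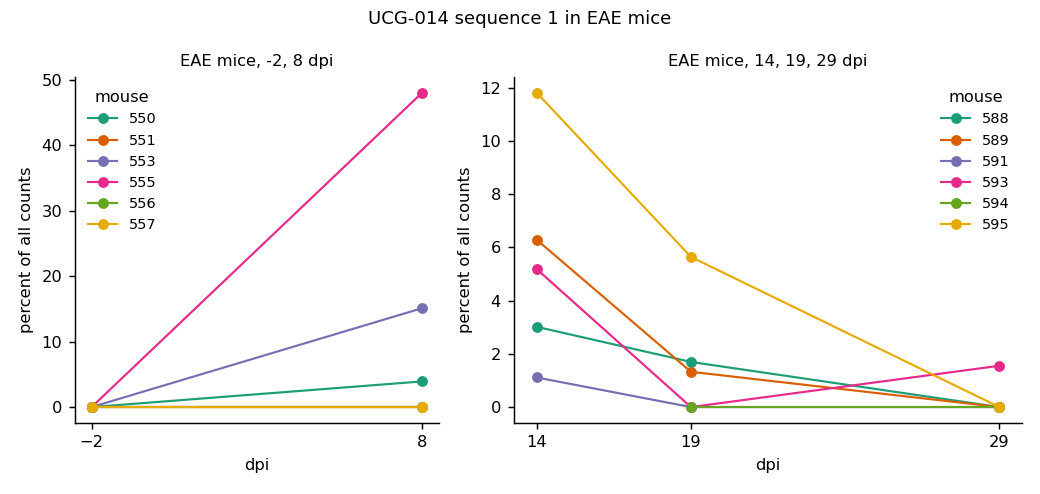
Percent of counts held by UCG-014 sequence 1 in each EAE mouse, with the mice of -2 and 8 dpi at the left (axis to 50%) and those of 14, 19 and 29 dpi at the right (axis to 12%). It is at 0 in all mice at -2 dpi, in all 5 mice at 14 dpi between 1.11 and 11.8%, and in 1 mouse of 6 at 29 dpi.

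These values are a description with no test, since the ASVs of the sequence became members through EAE mice. Its mean was 3.81% at 8 dpi without the shallow mouse 555 and 0.604% at 19 dpi without the shallow mouse 595, from n = 5 mice each.

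Without UCG-014 sequence 1, the total of the members no longer stood higher in EAE mice on every day. The difference from naïve mice became -1.73, 0.639, 3.48 and 3.25 points on the 4 days after immunization, and that from CFA mice -2.31, -2.13, 3.27 and 2.03. None of these passed, with adjusted exact permutation p-values of 0.108 against both at 19 dpi and 0.141 or more otherwise. The members left still include ASVs found in EAE mice alone and 14 found in CFA mice alone, so these tests cannot decide on a difference. The share of UCG-014 sequence 1 in a mouse's member counts was 44.2 to 100% in the mice with it at 8 dpi and 14 dpi other than mouse 591 (32.6%), and 11.5 to 47.5% at 19 and 29 dpi.

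UCG-014 sequence 8 differed from sequence 1 at 1 position. It was found in EAE mouse 550 at 8 dpi (1.39%) and mouse 588 at 14 dpi (1.31%) and 19 dpi (1.91%), and in no other sample. Each of these samples also held sequence 1, at 3.92, 3.01 and 1.70%.

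The other abundant UCG-014 sequences followed different courses. Sequence 2 was in 42 samples, among them all 3 treatments at 8 dpi, where it reached 2.10% in naïve, 0.980% in CFA and 0.410% in EAE mice. Sequence 3 was in 5 of 6 naïve mice at -2 dpi (up to 2.56%) and in 5 of 6 EAE mice at 29 dpi (up to 1.26%), but in 0 of 5 CFA mice then. It also reached 6.07% in 1 EAE mouse at 14 dpi.

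Sequence 4 ran the other way. All 6 CFA mice held it at 8 dpi, at 0.589 to 2.18%, and 0 of 6 EAE mice did (edgeR adjusted p = 0.0239; exact permutation p = 0.00216, adjusted 0.0874). Those EAE mice include the shallow mice 551 and 555, with 22 and 4 ASVs of any kind. Sequence 5 was in 3 of 5 EAE mice at 14 dpi and 5 of 6 at 29 dpi (up to 1.05%), against 0 of 6 naïve mice on both days (edgeR adjusted p = 0.0418 at 29 dpi; exact permutation p = 0.0152, adjusted 0.306).

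**Figure D5:**
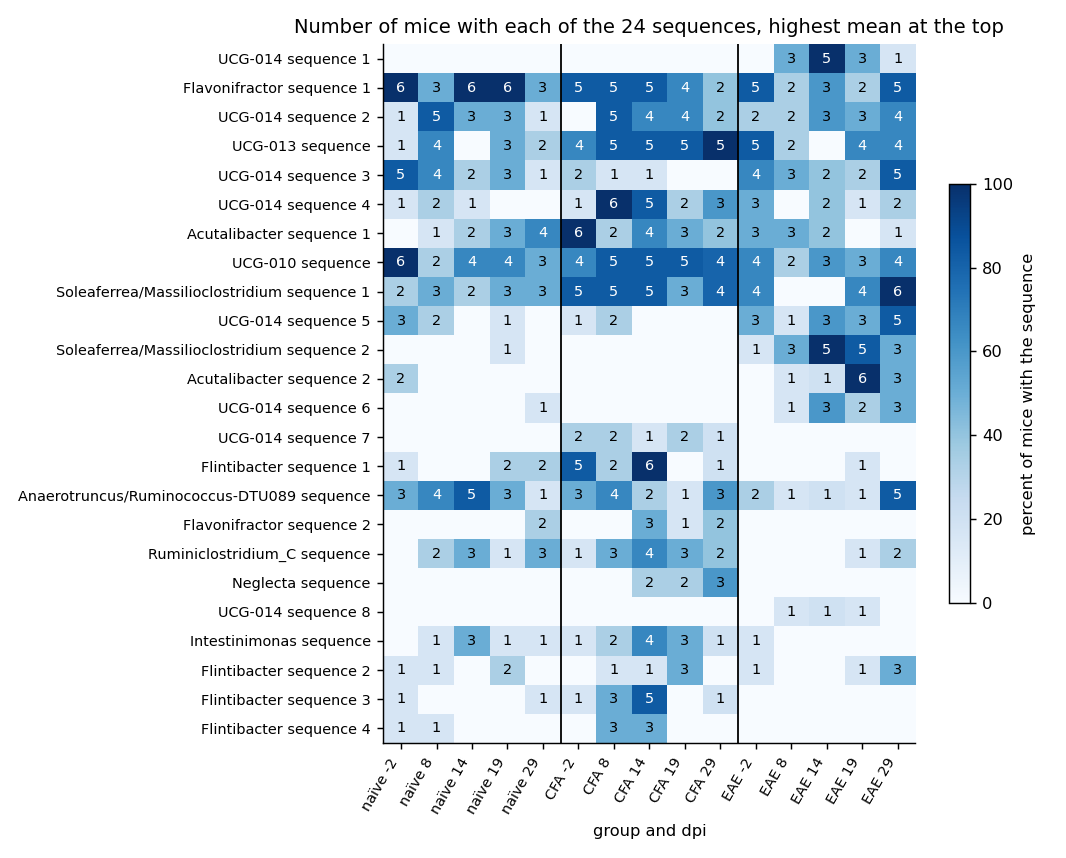
Number of mice in which each of the 24 sequences was found, by treatment and day in dpi, with colour for the percent of the mice of that group. UCG-014 sequence 1 is confined to EAE mice from 8 dpi on, UCG-014 sequence 7 and the Neglecta sequence to CFA mice, and Flavonifractor sequence 1 and the UCG-010 sequence spread over all groups.

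The remaining abundant sequences were shared among treatments to different degrees. Soleaferrea/Massilioclostridium sequence 1 was in 0 of 6 EAE mice at 8 dpi and 0 of 5 at 14 dpi, where 5 of 6 CFA mice held it on each day (up to 0.933% and 1.31%). At 19 dpi it was in 4 of 6 EAE mice, which were numbered differently from those of 8 dpi, and at 29 dpi in 6 of 6, at 0.206% or more. The absence at 8 and 14 dpi did not pass after adjustment (exact permutation p = 0.0152 and 0.0260, adjusted 0.278 and 0.238). It rests in part on the shallow EAE mice 551 and 555 at 8 dpi and 589 at 14 dpi.

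Acutalibacter sequence 1 differed between groups before any immunization. At -2 dpi it was in 6 of 6 CFA mice, at 0.225 to 1.21%, in 3 of 6 EAE mice and in 0 of 6 naïve mice (CFA against naïve, edgeR adjusted p = 0.0498; exact permutation p = 0.00216, adjusted 0.146). By 29 dpi it was in 4 of 6 naïve, 2 of 5 CFA and 1 of 6 EAE mice. The UCG-013 sequence was in 0 of 6 naïve and 0 of 5 EAE mice at 14 dpi, and 5 of 6 CFA mice held it then at 0.221 to 1.52% (edgeR adjusted p = 0.0421 against naïve and 0.0461 for EAE against CFA).

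Several less abundant sequences, chosen after their values were seen and therefore given with no test, were found mostly in 1 treatment. Soleaferrea/Massilioclostridium sequence 2, the one nearest to a Lachnospiraceae sequence, was in 3 of 6, 5 of 5, 5 of 6 and 3 of 6 EAE mice at 8, 14, 19 and 29 dpi. At 14 dpi it held 0.278, 0.408, 0.929, 1.30 and 1.94% in EAE mice, while all naïve and CFA mice were at 0. Outside these it was found in 1 EAE mouse at -2 dpi (0.0619%) and 1 naïve mouse at 19 dpi (0.119%).

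Acutalibacter sequence 2 was in all 6 EAE mice at 19 dpi, at 0.660 to 2.47%, and in 0 of 6 naïve and 0 of 6 CFA mice. At -2 dpi it was in 0 of 6 EAE mice, which carried other numbers than those of 19 dpi, but in 2 of 6 naïve mice (0.780 and 0.785%). UCG-014 sequence 6 was in 9 EAE samples after immunization and in 1 naïve sample.

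On the CFA side, UCG-014 sequence 7 was found in 8 samples, all from CFA mice, and 2 of them at -2 dpi (0.480 and 1.32%). The Neglecta sequence was in 2 of 6, 2 of 6 and 3 of 5 CFA mice at 14, 19 and 29 dpi, up to 2.01%, and in no other sample. Flintibacter sequence 1 was in 6 of 6 CFA mice at 14 dpi, at 0.272 to 0.975%, and in 0 of 6 naïve and 0 of 5 EAE mice, but also in 5 of 6 CFA mice at -2 dpi (up to 0.774%). Outside CFA mice it was in 1 of 6 naïve mice at -2 dpi. After immunization it was in 4 of 24 naïve and 1 of 23 EAE samples. Flavonifractor sequence 2 was in 6 CFA samples from 14 dpi on and in 2 naïve samples at 29 dpi.

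Over the 24 sequences, edgeR called 11 of 96 tests (11.5%) for EAE against naïve over 8 to 29 dpi, where 12.3% of tests of all 202 sequences were called. For EAE against CFA it called 14 of 96 (14.6%, background 8.29%) and for CFA against naïve 4 of 96 (4.17%, background 6.93%). UCG-014 sequence 1 accounted for 4 of the 11 and 3 of the 14, and its members were selected through EAE mice. All 30 calls between treatments, with the 1 at -2 dpi, had a group entirely at 0. At -2 dpi 5.45% of all sequences were called for CFA against naïve, and Acutalibacter sequence 1 was the member among them. Exact permutation tests of percents and Fisher's exact tests of presence, adjusted over the same sequences, called 0 among the members and 0% among all sequences in each pair. The smallest p that either of these exact tests can give for 6 against 6 mice is 0.00216 before adjustment over 202 sequences. They could thus hardly call a single sequence, and their 0 calls decide nothing about the edgeR calls. Differences in the change since -2 dpi were called by edgeR in 11 of 96 tests (11.5%, background 10.1%) for EAE against naïve. For EAE against CFA 5 of 96 (5.21%, background 7.18%) and for CFA against naïve 2 of 96 (2.08%, background 4.21%) were called. Each of these calls, too, had a group entirely at 0.

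The number of member ASVs per mouse depended on primer variants. EAE mice at 14 dpi held 3, 5, 15, 17 and 19 member ASVs, a mean of 11.8, against 2.83 in naïve and 6.67 in CFA mice. The difference from naïve mice, 8.97, did not pass (exact permutation p = 0.0303, adjusted 0.227), nor did that between CFA and naïve mice, 3.83 (exact permutation p = 0.00866, adjusted 0.130). Neither test can decide on an excess. Of the 111 members, 25 met the minimum of 3 samples through EAE mice alone and 14 through CFA mice alone. Counted as sequences, EAE mice held a mean of 4.00, naïve mice 2.50 and CFA mice 5.67 at 14 dpi, which put EAE mice below CFA mice. EAE mouse 595 at 14 dpi held 19 member ASVs that were only 3 sequences, and mouse 553 at 8 dpi held 18 that were 2 sequences.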

How the data were processed

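The V3 and V4 regions of bacterial 16S genes were amplified from mouse feces and sequenced on an Illumina MiSeq. The deposited table holds read counts for each ASV in each sample, made by the authors with DADA2 and neither scaled nor rarefied. Primers were left in the sequences, and the authors curated taxonomic names by hand from several reference databases. Of 89 samples in the count table, 1 (CFA, 29 dpi) held no counts and was not used. Samples were grouped by treatment and day after the labels.

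Counts were turned into percents of a sample's total and compared by two-sided exact permutation tests, or paired sign-flip tests by mouse, with Benjamini-Hochberg adjustment at 0.05 in Python 3.11.15 with SciPy 1.17.1. The labels of naïve and CFA mice give the same mouse numbers on all days and those of EAE mice at -2 and 8 dpi, which pairs these samples. ASVs, genera and primer-free sequences in at least 3 samples were tested by quasi-likelihood in edgeR 4.0.16 (TMMwsp factors, all 15 groups in 1 fit) under R 4.3.3, with DESeq2 1.42.0 as an alternative. Sequences were aligned with Biopython 1.88. On simulated counts with a dispersion of 0.5, edgeR recovered 196 of 200 ASVs changed 8-fold among 648, and 20 of 20 genera among 51; at the median dispersions of the data (55.0 and 10.9) it recovered 0. All 12 member genera and the 10 sequences with the highest mean percent were named by rule; other sequences were chosen after their values were seen. The members, lists and tests were chosen with earlier results of these data known. PCR reads without molecular identifiers are not independent molecules.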

Additional observations from a re-analysis of the deposited data

Results flagged for a closer look

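Of 73 groups of 4 to 10 mice examined for 1 value far from the rest, 10 had one, where chance gives about 1 in 20 groups. In 5 of the 10 all other mice were at 0, so that any value above 0 would have stood apart and that rate does not apply. EAE mouse 555 at 8 dpi, with the lowest total count of all samples, stood at 48.0% for all members and, through UCG-014 sequence 1, at 48.0% for UCG-014. UCG-014 was also far higher in 1 naïve mouse at 14 dpi (mouse 563, 3.53%) and 1 at 29 dpi (mouse 562, 1.21%) than in the other naïve mice. Flavonifractor stood apart in naïve mouse 562 at 29 dpi (2.81%) and in EAE mouse 556 at 8 dpi (2.20%). UCG-013 stood apart in naïve mouse 561 at -2 dpi (0.707%), naïve mouse 558 at 19 dpi (0.183%), naïve mouse 563 at 29 dpi (0.147%) and EAE mouse 594 at 29 dpi (1.98%).

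The change since -2 dpi differed between treatments by edgeR for 2 genera. Anaerotruncus moved higher in EAE than in naïve mice at 14 dpi (adjusted p = 0.0268) and 29 dpi (0.0149). It also moved higher in EAE than in CFA mice on these days (0.0313 and 0.0304). Ruminococcus-DTU089 moved lower in EAE than in CFA mice at 14 dpi (0.0313) and 19 dpi (0.0208). These are 2 of 48 tests of member genera for EAE against naïve, where 9.31% of all were called, and 4 of 48 for EAE against CFA (11.8%). All 6 calls had at least 1 group entirely at 0, and Anaerotruncus was in at most 1 mouse of a group. Both names belong to ASVs of the same sequence, for which no such difference was called with its primer variants merged.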

How the results depend on the processing

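Depth limits the EAE mice most, since the shallowest samples are theirs. In the totals, the difference between EAE and naïve mice at -2 dpi turned to -0.175 points outside Lactobacillaceae and -0.0872 with medians. With all ASVs of these genera, EAE against naïve passed at 14 dpi (11.9) and 19 dpi (5.87), EAE against CFA at 14 dpi (6.44) and 19 dpi (6.18), and CFA against naïve at 14 dpi (5.43), while CFA against naïve turned to 0.632 at -2 dpi and -0.310 at 19 dpi. Without UCG-014 sequence 1, an alternative added after seeing the data, EAE against naïve turned to -1.73 at 8 dpi, and EAE against CFA to -2.31 at 8 dpi and -2.13 at 14 dpi, and UCG-014 at 8 dpi to -0.93 against naïve and -0.81 against CFA mice. The change of CFA mice at 29 dpi turned to -0.502 outside Lactobacillaceae, and the share of family counts, CFA against naïve at 8 dpi, to 0.0470 with all ASVs of the family. With primer variants merged, the number per mouse turned to 0.667 (-2 dpi) and -1.17 (8 dpi) for EAE against naïve, -2.67 (8 dpi) and -1.67 (14 dpi) for EAE against CFA, and 0.167 (-2 dpi) and 0.833 (19 dpi) for CFA against naïve.

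Calls of member genera for EAE against naïve, EAE against CFA and CFA against naïve were 0, 4 and 1. They were 10, 15 and 9 by DESeq2, 1, 1 and 0 by exact permutation test, and 1, 2 and 3 with genus counts from all ASVs. With no filter on rare taxa the second and last were 1 and 2, with only 2 groups fitted the last was 0, and leaving out each EAE mouse at 14 dpi gave 1 to 2 for EAE against CFA. Calls within treatments since -2 dpi were 0, and 4 in naïve, 11 in CFA and 2 in EAE mice at 8 dpi by DESeq2, with 1 in naïve mice when no filter was used. The replicate block, paired by mouse, gave 0 calls as did the fit without it. Differences in change were called 4 times (EAE against naïve) and 3 times (CFA against naïve) by DESeq2.

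Calls of member ASVs were 0 in each pair. They were 120, 128 and 78 by DESeq2, 11, 10 and 5 with only 2 groups fitted, 11, 14 and 4 with primer variants merged, and 5 and 5 for the first pairs with total counts only. Calls of sequences, 11, 14 and 4, were 33, 52 and 23 by DESeq2 and 0 by permutation and by Fisher's exact test. For EAE against CFA they were 31 with only 2 groups fitted and 9 without EAE mice 555 at 8 dpi and 595 at 19 dpi, and for CFA against naïve 7 with only 2 groups. The DESeq2 calls were 34.4, 54.2 and 24% of member tests, where 25, 29.2 and 29.2% were called already at -2 dpi. Counts in this section without a share over all features beside them describe the settings and are no result about the members. Of single genera, Flavonifractor turned to a log2 fold change of -0.24 for EAE against naïve at 29 dpi with no filter and with all ASVs, and UCG-013 at 8 dpi to 0.33 by DESeq2 and 0.22 without mouse 555. The causes were not tested.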
